A study of Mus musculus with 12 samples.

Results

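The SR and hnRNP splicing factor genes were followed through bulk RNA-seq of the cerebellum of mice that model spinocerebellar ataxia 1 (SCA1). The families were taken as all protein-coding genes with a mouse symbol of Srsf followed by a number, or starting with Hnrnp, and this gave 32 of the 56941 genes in each count table, 12 SR genes and 20 hnRNP genes. The choice used symbols only and no measured value. Of these, 31 were expressed highly enough to be tested, 11 SR genes and all 20 hnRNP genes. The exception was Srsf19, which had 0 counts in all 12 libraries. At 3 counts per library, a count of 0 allows a level of up to 0.0934 to 0.146 CPM (counts scaled to a common library total), by counting error only. The 3 pseudogenes with such symbols, Srsf3-ps, Hnrnpa1l2-ps and Hnrnpa1l2-ps2, were not counted as members.

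Libraries came from 12 mice aged about 16 weeks, in 4 groups of 3 set by genotype (WT or SCA1) and by treatment (sedentary or exercise). SCA1 mice were heterozygous for a knock-in of an expanded CAG repeat at the endogenous Atxn1 locus, so the mutant allele was driven by its own promoter and was not limited to a cell type, and WT mice were C57BL/6J littermates of either sex. Exercise mice had a running wheel from 4 to 16 weeks of age and were housed alone. Sedentary mice were housed in groups without a wheel, so running and housing cannot be told apart. According to the paper, wheels were taken out days before the behavioural tests, and tissue was collected after the last test. RNA was thus sampled after running had stopped and after motor testing of all groups. The study asked whether running altered RNA levels and splicing in the cerebellum of these mice. Counts here measured the RNA of each whole gene, not the splicing of its exons and not protein.

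SR proteins pair RNA recognition motifs with a domain rich in arginine and serine, which is phosphorylated and recruits the splicing machinery to exons. The hnRNP proteins coat nascent transcripts, often through RNA recognition or KH domains and glycine-rich regions with RGG repeats, and many of them repress splice sites that SR proteins promote. Both families are made in nearly every cell, neurons included, and many of their genes hold exons that divert part of their own transcripts to nonsense-mediated decay.

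The coding sequences showed the feature that separates the families. Stretches of 30 codons are printed from the GRCm39 genome, in coding orientation, for the 3 genes with the lowest unadjusted p between the sedentary groups and for Srsf11 and Hnrnpu, which were added after their values were seen because they differed widely between mice. Capitals mark codons of arginine next to serine, in either order, and in Hnrnpu codons of arginine-glycine-glycine runs.
Srsf10: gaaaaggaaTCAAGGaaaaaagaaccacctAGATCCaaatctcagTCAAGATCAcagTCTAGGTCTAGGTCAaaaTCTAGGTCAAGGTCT
Srsf7: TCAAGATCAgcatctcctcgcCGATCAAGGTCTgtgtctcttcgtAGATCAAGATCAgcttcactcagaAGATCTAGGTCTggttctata
Srsf11: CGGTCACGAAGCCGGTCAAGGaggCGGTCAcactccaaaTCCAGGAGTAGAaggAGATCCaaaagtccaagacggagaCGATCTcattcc
Hnrnpc: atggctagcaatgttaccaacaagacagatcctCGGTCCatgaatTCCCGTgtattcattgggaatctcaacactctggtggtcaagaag
Hnrnpu: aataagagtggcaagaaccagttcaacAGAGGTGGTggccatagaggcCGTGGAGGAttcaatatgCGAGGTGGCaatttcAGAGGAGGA
The Srsf10 stretch lay at chr4:135591218-135591307 on the plus strand in exon 6 of the canonical transcript, and held 12 arginine-serine pairs. On the minus strand, Srsf7 (chr17:80511571-80511660, exon 5) held 11 pairs and Srsf11 (chr3:157722000-157722089, exon 9) held 12. The Hnrnpc stretch (chr14:52321723-52321812, minus strand, exon 2) held 2 such pairs, the most in any 30 codons of that gene that lay within 1 exon. The Hnrnpu stretch (chr1:178158158-178158247, minus strand, exon 11) held 4 RGG runs. Over whole coding sequences, arginine-serine pairs numbered a median of 15.6 per 100 codons in the 12 SR genes and 0.995 in the 20 hnRNP genes, against 0.786 in the 14558 protein-coding genes tested. At least 5 pairs per 100 codons were held by 10 of 12 SR genes, by 0 of 20 hnRNP genes and by 0.412% of the genes tested. The exceptions among SR genes were Srsf9, with 4.05 per 100, and the undetected Srsf19, with 1.57. An RGG run was encoded by 13 of 20 hnRNP genes and 4 of 12 SR genes, against 13.5% of the genes tested. Transcripts annotated as targets of nonsense-mediated decay were listed for 11 of 12 SR genes, with a median of 18.5 per gene, and for 14 of 20 hnRNP genes, with a median of 4.5, against 71.9% and a median of 3 over the genes tested.

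Between 20556802 and 32127508 read pairs per library were counted on the strand of a gene. All 7 Purkinje cell markers and all 5 granule cell markers exceeded 1 CPM in all 12 libraries. The libraries of SCA1 sedentary mouse 16 and SCA1 exercise mouse 55 stood apart. They had 6.38% and 6.33% of read pairs mapping to several places, against 2.08% to 3.46% in the other 10, and summed CPM of 5 brainstem Hox genes of 29.7 and 35.4, against at most 2.55. Their oligodendrocyte markers summed to 6454 and 5209 CPM (2311 to 3868 in the others) and their granule cell markers to 1694 and 2162 CPM (2550 to 3408). Choroid plexus markers summed to 12.4 to 405 CPM in WT sedentary and 813 to 1900 in WT exercise mice, which did not overlap. In SCA1 mice they summed to 13.9 to 1157 CPM (sedentary) and 517 to 1590 (exercise). Oligodendrocyte markers of the WT groups did not overlap either, at 2998 to 3868 CPM (sedentary) and 2507 to 2647 (exercise). The part of these markers in differences with running was not tested. Y-linked transcripts were high in all 3 WT sedentary mice and near 0 in WT exercise mouse 201, SCA1 sedentary mouse 194 and SCA1 exercise mice 55 and 122. Family and list results without mice 16 and 55 are given after those with all mice.

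Levels within both families covered a wide range. They are given as CPM per kilobase of annotated exon, as the mean of the 3 WT sedentary mice. Exon length joined the exons of all annotated transcripts of a gene, so the order of genes also depends on the annotation. Srsf9, with 35 annotated transcripts, had 10057 bases of exon for 222 codons. Hnrnpa0, with 1 transcript, had 2678 bases for 305 codons. The SD and the ranges below cover the spread between mice only. Among SR genes the highest were Srsf5 at 44.0 ± 1.30 (SD, n = 3), Srsf1 at 39.4 ± 1.93, a founding member of the family that promotes exon inclusion, and Srsf2 at 37.6 ± 0.558, which marks nuclear speckles. The lowest detected were Srsf9 at 3.08 ± 0.269 and Srsf12, a relative of Srsf10, at 2.58 ± 0.405. Among hnRNP genes the highest were Hnrnpu at 51.1 ± 2.67, which binds both chromatin and RNA, Hnrnpl at 41.8 ± 0.732, which binds CA repeats, and Hnrnpa1 at 40.4 ± 2.81, the best known splicing silencer. The lowest were the G-tract binding relatives Hnrnpf at 4.26 ± 0.133 and Hnrnph3 at 4.17 ± 0.292. In this order the ranges of WT sedentary mice overlapped for 4 of 10 neighbouring pairs of SR genes and for 11 of 19 pairs of hnRNP genes. Srsf1 and Srsf2 overlapped, as did Hnrnpl and Hnrnpa1, while Srsf5 and Hnrnpu lay above the next gene of their family in all 3 mice.

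**Figure D1:**
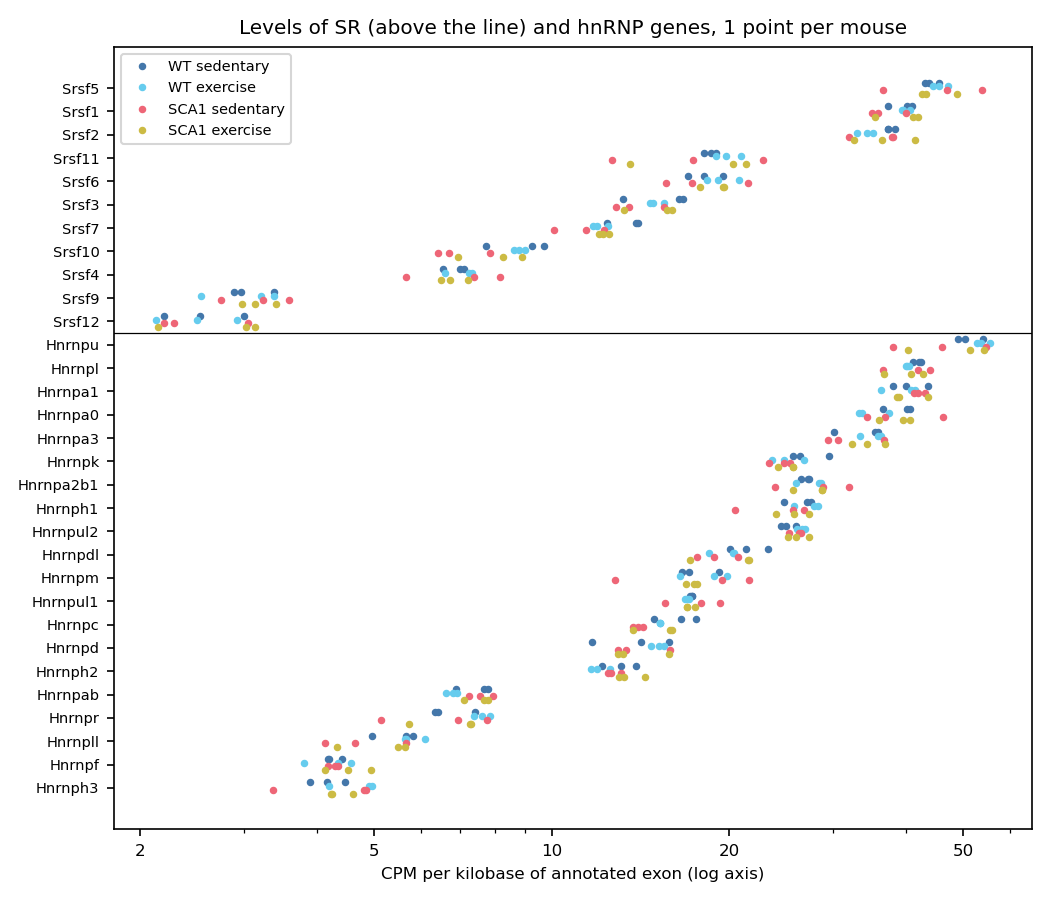
Level of each of the 31 detected SR and hnRNP genes in each of 12 mice, as CPM per kilobase of annotated exon on a log axis, 1 point per mouse, coloured by group. Colours of a gene lie close together beside the range between genes, which runs in WT sedentary means from 2.58 in Srsf12 to 51.1 in Hnrnpu.

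Between mice of a group, the SR genes varied by a median coefficient of variation of 8.78% (5.36% in Srsf7 to 17.5% in Srsf12) and the hnRNP genes by 7.29% (2.78% to 11.5%). The steadiest, Hnrnpul2, a relative of Hnrnpu chosen after its values were seen, had 185 to 196 CPM in the sedentary and 198 to 204 in the exercised WT mice, and 191 to 200.2 in the sedentary and 190.3 to 207 in the exercised SCA1 mice.

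No SR or hnRNP gene passed the thresholds when sedentary SCA1 mice were compared with sedentary WT mice, the contrast that asks what the mutant allele does without running. A gene was called at an edgeR adjusted p under 0.05 and an absolute log2 fold change (log2FC) over 0.5. This held for 0 of 31 members (0 with DESeq2 as well, here and in the other 4 comparisons) and for 7 of 20341 genes, or 0.0344%. The paper, with DESeq2, reports more genes past these limits between the sedentary groups. An unadjusted p under 0.05 was reached by 3 of 31 members (9.68%), Srsf10, Srsf7 and Hnrnpc, near the 10.1% of all genes. All 3 were lower in SCA1, against 4.55% of all genes in that direction, which was chosen after the values were seen. In the SR family 3 genes had a log2FC above 0 and 8 below, with a median of -0.07, and in the hnRNP family 10 lay on either side, with a median of -0.01. Of all genes tested 52.5% lay above 0, with a median of 0.02.

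Srsf10, an SR protein that turns into a repressor when it loses its phosphates, had the largest difference. Its CPM was 77.6, 81.3 and 64.8 in WT sedentary mice 116, 117 and 192 and 56.1, 53.8 and 65.97 in SCA1 sedentary mice 16, 194 and 195. The groups overlapped, because mouse 195 lay above mouse 192. The log2FC was -0.35 ± 0.12 (SE; 95% interval -0.61 to -0.08; edgeR adjusted p = 0.362). Srsf7, an SR protein with a zinc knuckle, had 84.9, 85.7 and 76.1 CPM in WT sedentary mice and 70.0, 61.7 and 75.2 in SCA1 sedentary mice, in the same order of mice. The groups did not overlap, although mouse 195 came within 1 CPM of mouse 192. Its log2FC was -0.25 ± 0.09 (95% interval -0.45 to -0.05; edgeR adjusted p = 0.384). Srsf3, the smallest SR protein, had a mean of 114 CPM in SCA1 sedentary and 127 in WT sedentary mice (log2FC -0.15, edgeR adjusted p = 0.7003).

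Among hnRNP genes, Hnrnpc, which binds uridine tracts of nascent RNA, came first. It had 169.8, 160.0 and 144 CPM in WT sedentary mice and 133, 135 and 138 in SCA1 sedentary mice. The groups did not overlap. The log2FC was -0.22 ± 0.09 (95% interval -0.42 to -0.03; edgeR adjusted p = 0.432). Hnrnpdl, a relative of the AU-rich element binder Hnrnpd, had a mean of 137 CPM against 156 (log2FC -0.18, edgeR adjusted p = 0.609). Hnrnpk, a poly(C)-binding KH domain protein, had 279.6 against 310.3 CPM (log2FC -0.15, edgeR adjusted p = 0.612), with every SCA1 sedentary mouse below every WT sedentary mouse. Groups that do not overlap were thus found for 3 of 31 members, Srsf7, Hnrnpc and Hnrnpk, against 11.4% of all genes. All 3 were lower in SCA1, against 5.76% of all genes in that direction, again chosen after the values were seen. For each of these the two-sided exact permutation p was 0.1, the smallest that 3 mice against 3 allow.

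**Figure D2:**
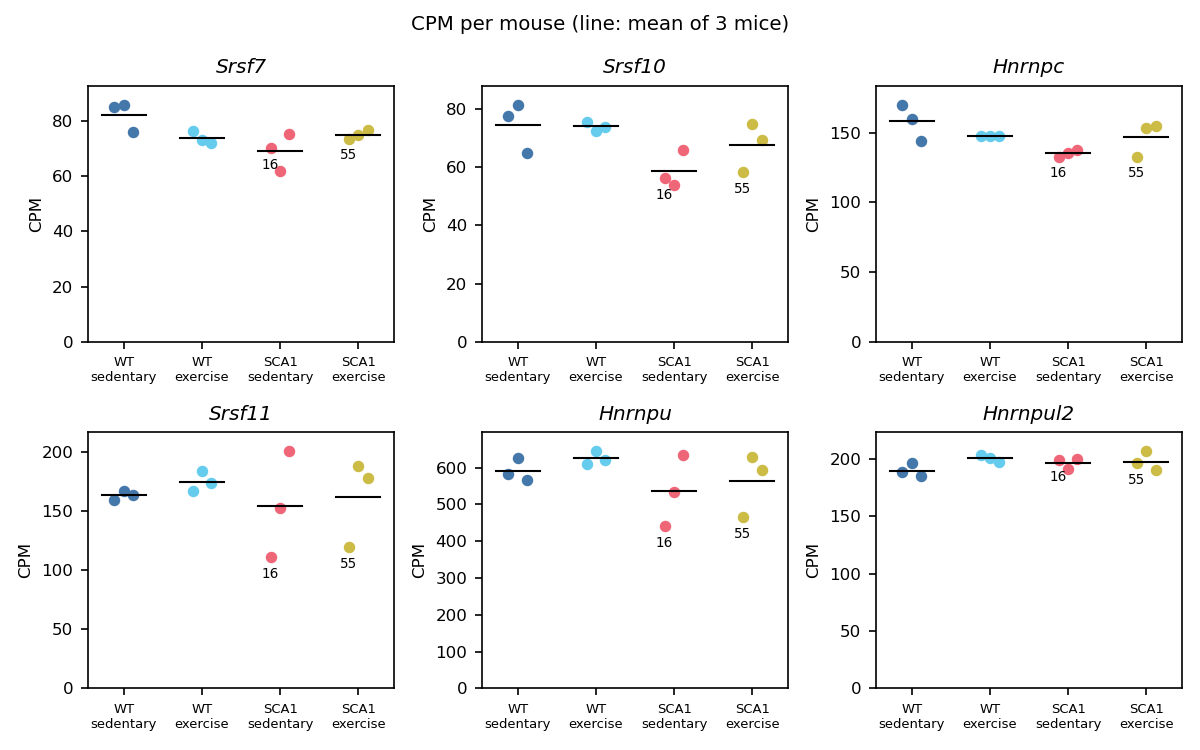
CPM of 6 genes in each mouse by group, from 0, with a line at the mean of 3 mice and labels on mice 16 and 55. Srsf7 and Hnrnpc of SCA1 sedentary mice lie below those of WT sedentary mice, Srsf10 overlaps, mice 16 and 55 are lowest for Srsf11 and Hnrnpu, and Hnrnpul2 stays between 185 and 207 CPM.

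The spread also bounds what could have been missed. The 95% interval of the log2FC lay wholly within 0.5 of 0 for 29 of 31 members, 9 of 11 SR and 20 of 20 hnRNP genes, against 33.1% of all genes tested. The all-gene share includes many genes of low counts and wide intervals. The intervals that reached past 0.5 were those of Srsf10 and of Srsf11, a regulator of small neuronal exons (-0.504 to 0.345). Purkinje cell markers summed to 4439 to 5924 CPM in SCA1 sedentary and 7308 to 8115 CPM in WT sedentary mice, and granule cell markers to 1694 to 3249 and 2977 to 3367 CPM. Their part in the differences of Srsf10, Srsf7 and Hnrnpc was not tested, and in bulk tissue fewer cells of a type and less RNA per cell cannot be told apart.

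**Figure D3:**
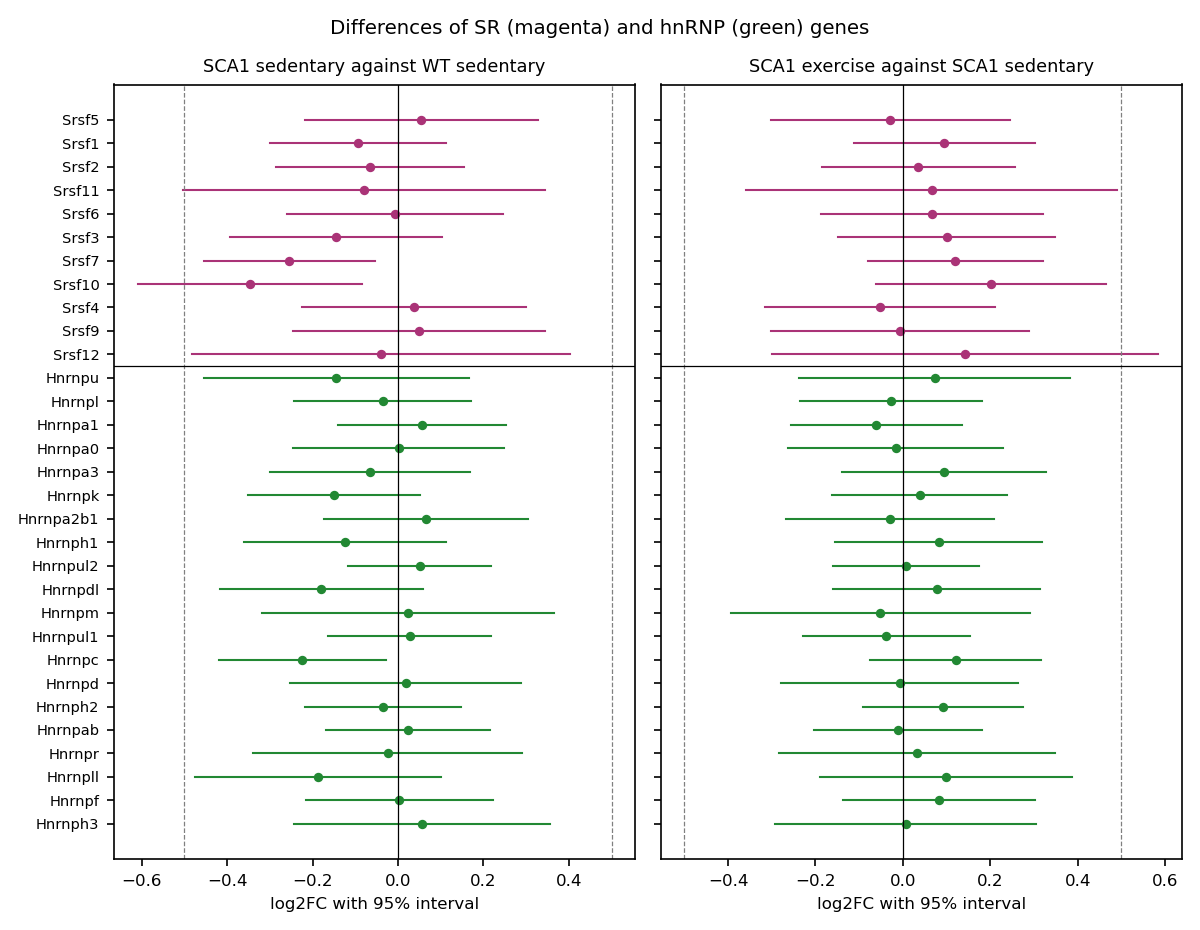
log2FC (point) and 95% interval (line) of the 31 members for sedentary SCA1 against sedentary WT mice (left) and for exercised against sedentary SCA1 mice (right), with dashed lines at 0.5 either way. Intervals of Srsf10, Srsf7 and Hnrnpc lie below 0 on the left, and all intervals on the right cross 0.

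Running in WT mice gave no member past the thresholds, as for all genes (0 of 20341 called by edgeR with all mice). The paper, with DESeq2, reports many genes past the same limits in this comparison. What made the all-gene counts differ was not tested. No member had an unadjusted p under 0.05, against 4.69% of all genes. SR genes had a median log2FC of -0.01 (5 above 0, 6 below) and hnRNP genes of 0.01 (10 and 10), and 50% of all genes lay above 0. The lowest p among SR genes was that of Srsf7, with 76.3, 73.2 and 71.9 CPM in WT exercise mice 121, 197 and 201 (log2FC -0.16, 95% interval -0.36 to 0.04, edgeR adjusted p = 0.958). Mouse 121 lay just above mouse 192 of the sedentary group, so the groups overlapped. Srsf2 had 123 CPM against 135 (log2FC -0.14) and Srsf6, an SR protein with a pair of RNA recognition motifs, had 119.6 against 112 (log2FC 0.09). Of the hnRNP genes, Hnrnpab had a mean of 44.9 CPM against 49.4 (log2FC -0.14), Hnrnpa0, an A/B type protein that binds AU-rich elements, 93.0 against 105 (log2FC -0.17), and the X-linked G-tract binder Hnrnph2 71.6 against 77.4 (log2FC -0.11). The edgeR adjusted p of these 5 genes was 0.958. Groups did not overlap for 2 members that were higher, Srsf11 and Hnrnpul2, and 3 that were lower, Srsf2, Hnrnpl and Hnrnpul1, against 21.2% of all genes. Intervals lay within 0.5 of 0 for 30 of 31 members, against 36.8% of all genes.

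The comparison of SCA1 exercise with SCA1 sedentary mice asks what running did in the presence of the mutant allele. No member passed the thresholds, as for all genes (0 of 20341 called by edgeR), no member had an unadjusted p under 0.05 (2.17% of all genes), and none had groups that did not overlap (4.5% of all genes). SR genes had a median log2FC of 0.07 (8 above 0, 3 below) and hnRNP genes of 0.02 (12 above, 8 below), against -0.01 for all genes, of which 48.1% lay above 0. Srsf10 had 74.8, 69.3 and 58.2 CPM in SCA1 exercise mice 122, 198 and 55, and its log2FC was 0.20 (95% interval -0.06 to 0.46, edgeR adjusted p = 0.999). Mouse 55 lay within the range of the sedentary SCA1 mice. Srsf7 had 74.8, 76.5 and 73.5 CPM (log2FC 0.12, 95% interval -0.08 to 0.32) and Srsf1 had 228 CPM against 213 (log2FC 0.09). Leaving out 1 mouse at a time moved these values widely, from 0.10 without mouse 122 to 0.31 without mouse 55 for Srsf10, from 0.057 without mouse 194 to 0.19 without mouse 195 for Srsf7, and from 0.030 without mouse 122 to 0.18 without mouse 55 for Srsf1. Hnrnpc had 154, 155 and 133 CPM (log2FC 0.12, 95% interval -0.07 to 0.32), with mouse 55 again at the level of the sedentary group, and ranged from 0.068 without mouse 122 to 0.20 without mouse 55. Hnrnph2 had 80.4 CPM against 75.5 (log2FC 0.09) and Hnrnpa3, an A/B type hnRNP, 186 against 174 (log2FC 0.09). The edgeR adjusted p of these 5 genes was 0.999. Intervals lay within 0.5 of 0 for 30 of 31 members, against 38.1% of all genes, and the exception was Srsf12.

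Srsf10, Srsf7 and Hnrnpc had log2FC below 0 between the sedentary groups and above 0 between the SCA1 groups. Both comparisons use the SCA1 sedentary mice, so a low value in those mice moves both, and neither sign is support for the other.

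Between the exercised groups, SCA1 against WT, no member passed the thresholds, as for all genes (0 of 20341 called by edgeR), and none had an unadjusted p under 0.05 (2.93% of all genes). Median log2FC was -0.01 in SR genes (4 above 0, 7 below) and -0.005 in hnRNP genes (8 above, 12 below), and 50.7% of all genes lay above 0. The lowest p was that of Hnrnph2, with 85.4, 78.8 and 77.1 CPM in SCA1 exercise mice 122, 198 and 55 and 74.7, 70.9 and 69.2 CPM in WT exercise mice 121, 197 and 201. The groups did not overlap, and the log2FC was 0.17 (95% interval -0.01 to 0.35, edgeR adjusted p = 0.9599). Hnrnpab did not overlap either (47.0 to 51.7 against 43.9 to 45.7 CPM, log2FC 0.15), nor did Hnrnpr, a relative of Syncrip, in the other direction (log2FC -0.17). These 3 of 31 compare with 14.2% of all genes. Hnrnpa0 had a log2FC of 0.15, and in the SR family Srsf10, Srsf2 and Srsf12 had -0.13, 0.11 and 0.14, all with an edgeR adjusted p of 0.9599. Intervals lay within 0.5 of 0 for 29 of 31 members, against 36.4% of all genes.

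The interaction tests whether running acted differently in the 2 genotypes. No member passed the thresholds, as for all genes (0 of 20341 called by edgeR), and none had an unadjusted p under 0.05 (3.78% of all genes). The lowest was that of Srsf7, at 0.28 ± 0.13 (95% interval -0.006 to 0.56, edgeR adjusted p of about 1). Its log2FC with running was -0.16 in WT and 0.12 in SCA1 mice. The other SR genes with low p were Srsf10 (0.22) and Srsf2 (0.17), and the hnRNP genes were Hnrnpc (0.22), Hnrnph2 (0.20) and Hnrnpdl (0.21). Median values were 0.08 in SR genes (7 above 0, 4 below) and 0.02 in hnRNP genes (11 above, 9 below), against -0.01 in all genes, of which 48.9% lay above 0. Intervals were wider here, and lay within 0.5 of 0 for 21 of 31 members, against 17.8% of all genes.

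Summed over each family, expression was close to level across the groups. SR genes summed to 1276 ± 54.6 CPM (SD, n = 3) in sedentary and 1282 ± 25.8 in exercised WT mice, and to 1218 ± 148 in sedentary and 1264 ± 113 in exercised SCA1 mice. In the same order, the hnRNP genes summed to 3491 ± 124, 3517 ± 45.8, 3353 ± 289 and 3417 ± 209 CPM. All differences between group means were smaller than the SD of the SCA1 sedentary group. SR genes took 25.8% of the summed CPM of both families in mouse 16 and 27.8% in mouse 198, with the other 10 mice between.

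**Figure D4:**
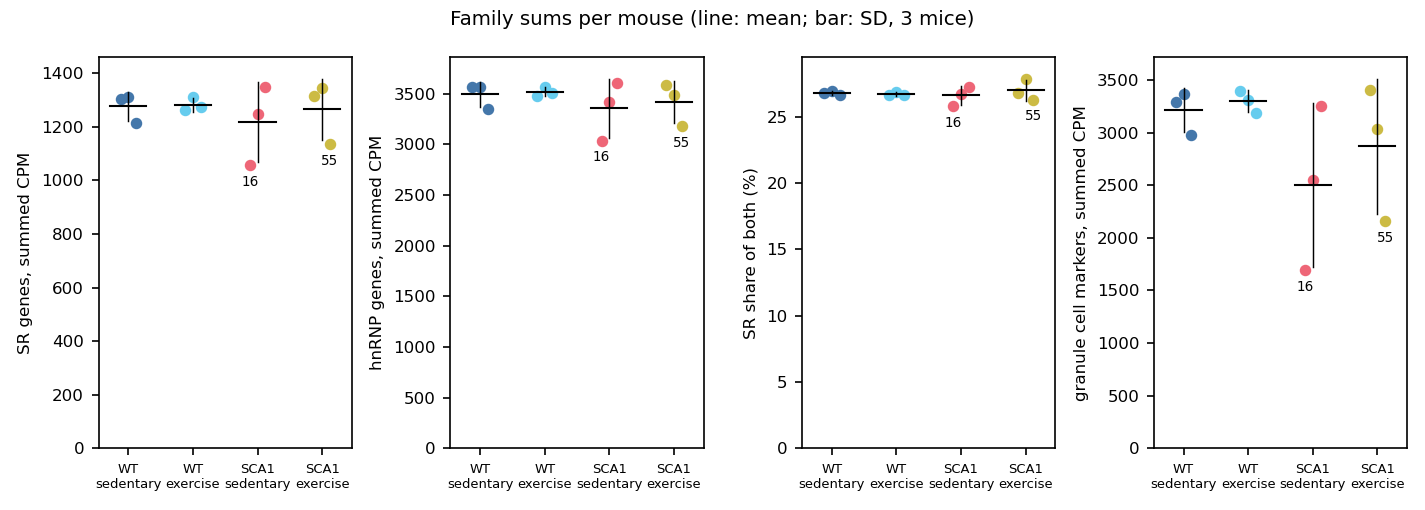
Summed CPM of the SR and hnRNP genes, SR share of both, and summed CPM of 5 granule cell markers in each mouse, with a line at the group mean and a bar of 1 SD (3 mice). Mouse 16 (1057 and 3036 CPM) and mouse 55 (1135 and 3182 CPM) have the lowest sums of both families and the lowest granule cell sums.

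The SD of the SR sums in SCA1 sedentary mice was 71.2 without mouse 16, and in SCA1 exercise mice 22.6 without mouse 55, against 148 and 113 with them. Mouse 16 held the lowest value of all 12 mice for 16 of 31 members (6 SR, 10 hnRNP), while it was lowest for 23% of all genes tested, and mouse 55 for 2 members (6.9% of all genes). Srsf11, chosen after its values were seen, had 111 CPM in mouse 16 and 119 in mouse 55, against 152 to 200.1 in the other 10. Hnrnpu had 440.3 and 466.5 CPM in these mice, against 533 to 644 in the others. Hnrnpm, also chosen after its values were seen, had 102 CPM in mouse 16 and 132 to 172 in the other 11. Hnrnpa0 went the other way, with its highest value, 124 CPM, in mouse 16. Low granule cell and high oligodendrocyte, Hox and multimapping values moved with these low levels, and their part was not tested.

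**Figure D5:**
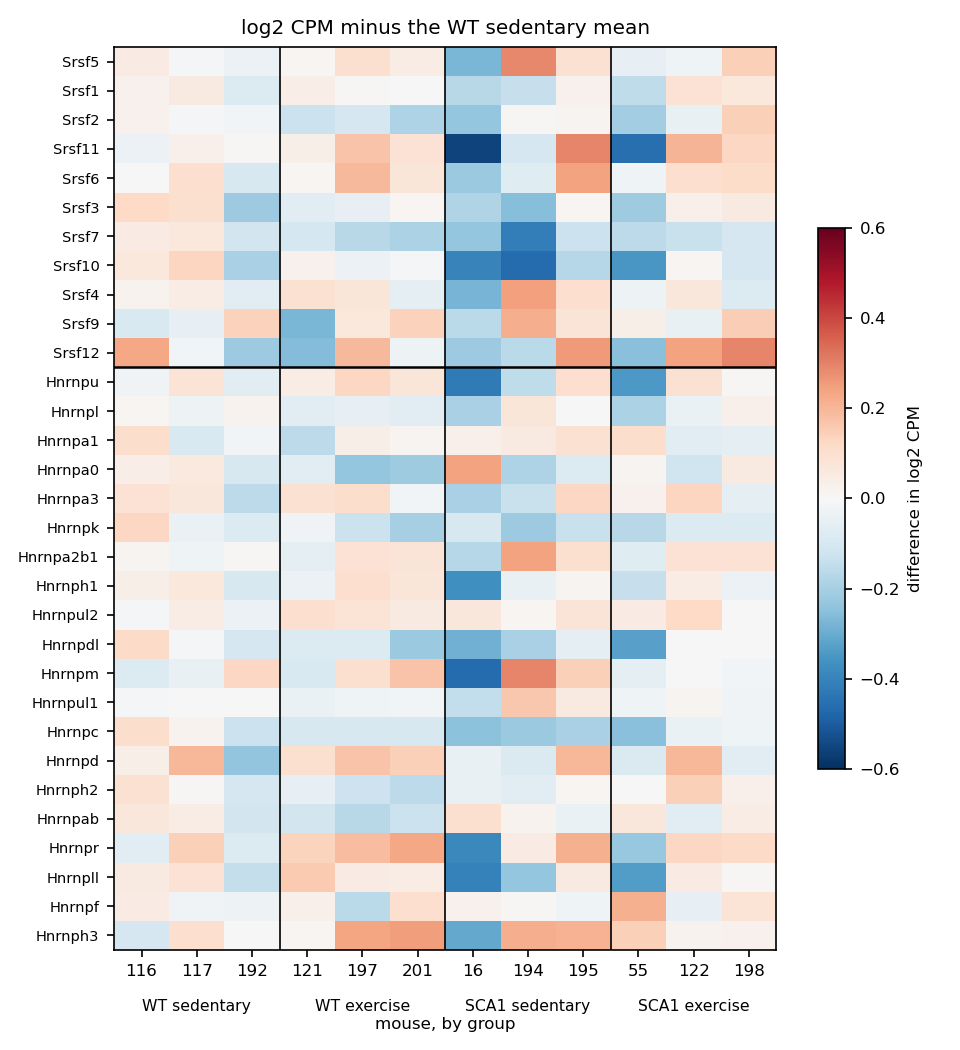
Difference of log2 CPM from the mean of the 3 WT sedentary mice for the 31 members (rows, SR above the line) in each mouse (columns, by group), blue for lower and red for higher. Mouse 16 is blue in most rows of both families. Srsf7, Srsf10 and Hnrnpc are blue in all 3 SCA1 sedentary mice, as are Hnrnpk and Hnrnpdl.

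Without mice 16 and 55 the family sums in the SCA1 groups were not below those of WT, with means of 1298 CPM for SR genes in sedentary and 1329 in exercised SCA1 mice, and 3511 and 3535 CPM for hnRNP genes. Between the sedentary groups, the SR median then changed sign, to 0.06, with 7 genes above 0 and 4 below, as did the hnRNP median, to 0.01, with 13 above and 7 below. Between the exercised groups the SR median turned as well, to 0.07, with 9 above 0 and 2 below, and the hnRNP median to 0.01, with 10 on either side. The hnRNP median of the interaction turned to -0.02, with 9 above and 11 below. Between the sedentary groups an unadjusted p under 0.05 was reached by 7 of 31 members, against 20.2% of all genes. Srsf10 (log2FC -0.30), Srsf7 (-0.25) and Hnrnpc (-0.19) stayed below 0, while Srsf5 (0.21), Hnrnpa2b1 (0.19), Hnrnph3 (0.23) and Hnrnpm (0.24) lay above, the last 4 named after their values were seen. The smallest edgeR adjusted p of a member was 0.171, so none passed the thresholds. The values rest on 2 SCA1 sedentary mice, 194 and 195. With running, 1 member had an unadjusted p under 0.05 in WT mice (Hnrnpr, 0.18; 13.3% of all genes) and 1 in SCA1 mice (Hnrnpm, -0.23; 8.79%). Between the exercised groups there were 2 (Srsf2, 0.20, and Hnrnph2, 0.21; 6.88%), and in the interaction 3 (Hnrnpc, Hnrnph3 and Hnrnpm; 14.8%). No member passed the thresholds in any of these fits. Over all 20494 genes tested without both mice, edgeR called 205 between the sedentary groups (1%), 64 with running in WT mice (0.312%), 37 between the exercised groups (0.181%), 0 with running in SCA1 mice and 0 in the interaction.

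Genes that act with these families were read from 4 lists, of which no gene passed the thresholds in any comparison with all 12 mice (edgeR). The first held 9 kinases and importers of SR proteins. Their median log2FC was 0.01 between the sedentary groups, 0.06 with running in WT, -0.02 with running in SCA1, -0.03 between the exercised groups and -0.004 in the interaction. None of the 9 had an unadjusted p under 0.05 in any comparison with all mice. The genes with the lowest p were, in that order, the importer Tnpo3 (-0.10), the kinase Srpk3 (-0.38), Dyrk1a (0.10), Srpk3 again (0.53) and Srpk1 (-0.26). Without mice 16 and 55 the median between the sedentary groups was 0.07, with 7 of 9 above 0, and those between the exercised groups and in the interaction turned to 0.01 and 0.001. The kinases Srpk1 (log2FC 0.30, edgeR adjusted p = 0.113) and Clk2 (0.27, edgeR adjusted p = 0.195) then had an unadjusted p under 0.05 between the sedentary groups, and Srpk1 in the interaction (-0.34, edgeR adjusted p = 0.285).

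The second list held 23 SR-related proteins with arginine-serine domains. With running in WT mice 20 of 23 lay above 0, with a median of 0.08, and Tra2a, an exon-promoting splicing factor, had 108 CPM against 89.0 (log2FC 0.28, edgeR adjusted p = 0.958). Between the sedentary groups 13 lay above 0 and 10 below, with a median of 0.01, and Scaf1, which binds the tail of RNA polymerase II, had 199 CPM in SCA1 against 159.7 in WT (log2FC 0.32, edgeR adjusted p = 0.3498). With running in SCA1 mice Scaf1 had a log2FC of -0.25 (edgeR adjusted p = 0.999) and the list a median of 0.004. Between the exercised groups 18 of 23 lay below 0, with a median of -0.08 and the lowest p in Scaf11 (-0.13), and in the interaction the median was -0.11 with the lowest p in Srrm2 (-0.41).

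The SR-related list depended on mice 16 and 55. Without them, 19 of 23 genes lay above 0 between the sedentary groups, with a median of 0.13. An unadjusted p under 0.05 was reached by 9, all higher in SCA1, against 20.2% of all genes and 10.7% in that direction. Srrm2, a scaffold of nuclear speckles, and Scaf4 then had an edgeR adjusted p of 0.0316 and 0.0479, with log2FC of 0.49 and 0.42, under the limit of 0.5. With running in SCA1 mice 7 of the 23 had an unadjusted p under 0.05, all lower, against 8.79% of all genes and 5.1% in that direction. Their edgeR adjusted p values were 0.565, and the list median turned to -0.02. Both of these comparisons share the sedentary SCA1 mice 194 and 195. Between the exercised groups the direction turned too, with 14 of 23 above 0 and a median of 0.02. In the interaction 16 of 23 lay below 0, with a median of -0.15. An unadjusted p under 0.05 was reached by 7, all below 0, against 14.8% of all genes in either direction. Their smallest edgeR adjusted p was 0.169. The interaction also uses the sedentary SCA1 mice 194 and 195, so it is not separate from the comparisons that share them.

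The third list held 20 hnRNP-type proteins with other symbols. Between the sedentary groups 17 of 20 lay below 0, with a median of -0.07, and Raly, a relative of Hnrnpc, had 71.4 CPM in SCA1 against 84.5 in WT (log2FC -0.24, edgeR adjusted p = 0.354), the groups not overlapping. The medians were 0.006 with running in WT (lowest p in Pcbp4, -0.23), 0.07 with running in SCA1 (14 above 0, lowest p in the cold-induced Rbm3, -0.14), -0.05 between the exercised groups (lowest p in Pcbp3, -0.17) and 0.07 in the interaction (Raly, 0.17). Without mice 16 and 55 only 11 of 20 lay below 0 between the sedentary groups, with a median of -0.05, while Raly had -0.25 (edgeR adjusted p = 0.1215). The median with running in SCA1 was then 0.03 and that between the exercised groups turned to 0.008.

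The fourth list held 27 proteins of the early spliceosome. Between the sedentary groups 23 of 27 lay below 0, with a median of -0.12, and with running in WT 22 of 27, with a median of -0.09. Snrpb, a core Sm protein of the spliceosomal particles, had the lowest p in both. Its mean was 57.2 CPM in WT sedentary, 45.4 in WT exercise and 48.7 in SCA1 sedentary mice (log2FC -0.33 with running in WT, edgeR adjusted p = 0.744; log2FC -0.23 between the sedentary groups, edgeR adjusted p = 0.4703). Both comparisons share the WT sedentary mice. An unadjusted p under 0.05 (edgeR) was reached by 4 of 27 with running in WT, all lower, against 4.69% of all genes. Between the sedentary groups 2 reached it, both lower, against 10.1% of all genes, and in the interaction 2, both above 0, against 3.78%. None did with running in SCA1 or between the exercised groups. Snrpe, named after its values were seen, had the lowest log2FC with running in WT (-0.60). With running in SCA1 the median was 0.02 (lowest p in Sf3b2, -0.16), between the exercised groups 0.04 (Snrpg, 0.31), and in the interaction 0.14, with Snrpb at 0.38 (edgeR adjusted p of about 1). Without mice 16 and 55, 17 of 27 lay below 0 between the sedentary groups, with a median of -0.06, and 21 of 27 with running in WT, with a median of -0.09. The median with running in SCA1 turned to -0.03, with 17 of 27 below 0. Without the same mice Snrnp70, the U1 particle protein that SR proteins contact, was called higher in SCA1 sedentary mice (log2FC 0.508, edgeR adjusted p = 0.0287, against 1% of all genes called). This log2FC lay just above the limit of 0.5, and the SCA1 sedentary group then held mice 194 and 195 only. With all mice the log2FC of Snrnp70 was 0.29 without passing.

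Counting by strand mattered for a few members. Reads on the opposite strand made up 14.4% of the stranded reads of Hnrnph3 and 9.57% of those of Hnrnpab, and under 5% in each other member. When counted without strand, where reads shared with an overlapping gene are dropped, Srsf4 kept 0.328 of its stranded count, Hnrnpab 0.535, Hnrnpf 0.609 and Srsf2 0.622. No member passed the thresholds with unstranded counts either.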

How the data were processed

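Cerebellar RNA of 12 mice was sequenced by the authors as directional, rRNA-depleted, paired-end libraries. Reads were checked with FastQC, trimmed with fastp 0.24.0 where adapter content was high, and aligned to GRCm39 with STAR 2.7.10a. RNA integrity was lower in 2 samples, whose fragmentation and amplification the authors changed. The paper marks them in a supplementary table that was not read here, so whether mouse 16 or 55 is among them is not known. The authors deposited STAR's raw gene counts of read pairs, unstranded and per strand, without normalization. Reverse-strand counts were used here. The annotation release behind the tables is not given in the sources used here. Of 56941 Ensembl IDs, 56323 matched GENCODE M39, which gave symbols, positions, exon lengths and coding sequences.

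In R 4.3.3, genes passing filterByExpr (20341) were scaled by TMM and fitted with edgeR 4.0.16 by quasi-likelihood in 1 model of 4 groups and 12 libraries. Adjustment was by Benjamini-Hochberg over all genes tested. CPM was computed with TMM-scaled library sizes, and a prior count of 2 was added for log2 CPM. Exact permutation tests were two-sided. The fit was also run on simulated counts with larger differences than those of the members. That run does not measure whether differences as small as theirs would be found. Alternatives were DESeq2 1.42.0, RLE scaling, unstranded counts, other filters, 2-group fits, a Y-linked covariate, and fits without mice 16 and 55 or without each mouse.

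Named were members past the thresholds, in each comparison the 3 lowest p per family, the 3 highest and 2 lowest levels per family, and from each list the lowest p per comparison. Members and lists were chosen with earlier results of these data known. Mice are the replicates, 1 library each. The depth per library is given with the results, and no interval covers more than the spread between these mice.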

Additional observations from a re-analysis of the deposited data

How the results depend on the processing

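In 20 alternative fits per comparison (19 for the interaction), 0 members passed the thresholds, and the smallest edgeR adjusted p was 0.158 (Srsf7 between the sedentary groups, without mouse 195). Of 161 planned results other than those leaving out 1 mouse, 151 kept their size, taken as a count within 1.5 times or a median within the SD between mice (0.116 for SR and 0.0674 for hnRNP genes on the log2 scale). Each SD was larger than every median of its family with all mice. Medians could thus change sign within these limits, such as the SR median between the exercised groups, at 0.069 without mice 16 and 55. A count of 0 in both fits was also scored as kept, which held for every count of members past the thresholds. The tally is therefore no measure of stability. The rest of the 161 results moved. Members with an unadjusted p under 0.05 numbered 7 between the sedentary groups without mice 16 and 55, and 1 with edgeR on the 2 groups alone. With running in WT mice there was 1 under each of these alternatives. Without mice 16 and 55 there was 1 with running in SCA1, 2 between the exercised groups and 3 in the interaction. The interaction had 1 with unstranded counts and 1 with the Y-linked covariate. The SR median between the sedentary groups was 0.064 without mice 16 and 55. The cause of these moves was not tested.

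Leaving out 1 mouse at a time gave 0 to 4 members with an unadjusted p under 0.05 between the sedentary groups (0 without WT sedentary mouse 116 or 117, 1 without SCA1 sedentary mouse 194). It gave 0 to 1 with running in SCA1 (1 without mouse 16, 55 or 195) and 0 to 4 in the interaction (4 without mouse 16, 1 without mouse 55, 192 or 195). The SR median ranged from -0.16 to 0.046 between the sedentary groups. With running in SCA1 it ranged from -0.031 to 0.19, the highest without mouse 195, and in the interaction from 0.026 to 0.20, the highest again without mouse 195. The hnRNP median in the interaction ranged from -0.053 to 0.086, the lowest without mouse 16. Counting without strand lowered the SR sums of WT mice to 1167 (sedentary) and 1158 CPM (exercise) and those of SCA1 mice to 1099 and 1146 CPM, and the hnRNP sum in WT exercise mice to 3435 CPM. The log2FC of each member named for a low p kept its sign in every fit that left out 1 mouse. These members were picked by p in the same data, which favours a steady sign, so this is no separate support. Other members were not followed in this way. Srsf11 between the sedentary groups had -0.08 with all mice and 0.13 without mice 16 and 55. No paired analysis was possible because the mouse numbers in the labels are not shared between groups.

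With 3 mice a group, differences under about the width of the intervals given could not be seen. Between the sedentary groups the widest were those of the low Srsf12 and of the abundant Srsf11. Whole-gene counts say nothing of isoforms, and sex was not balanced between groups.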
